A study of Mus musculus with 4 samples.

Results

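The forkhead (Fox) and Sox transcription factors were followed across mouse embryonic fibroblasts (MEFs) that lacked cyclin G2 or both cyclins G1 and G2. Members were chosen by name, as every probe other than a control spot whose gene name is Fox with a letter from a to s and a number, or Sox with a number. This gave 81 of the 39429 probes on the array, for 62 of 31829 gene names, with 56 probes for 43 Fox genes and 25 probes for 19 Sox genes. Total RNA from C57BL/6J MEFs in logarithmic growth was hybridised to 4 single-color Agilent arrays, 1 array for each of CycG2-/- MEFs (G2KO), CycG2+/+ MEFs as their WT, CycG1-/-CycG2-/- MEFs (DKO) and CycG1+/+CycG2+/+ MEFs as the WT of DKO. All 4 arrays lay on 1 slide. The MEFs were primary cultures from mid-gestation embryos, which hold fibroblasts together with whatever other embryonic cells attach. The CycG1-null allele replaced the coding exons with a neomycin cassette. With 1 array per group, no ratio has a replicate check, and no test between genotypes was run. Every value below describes these 4 cultures, and in such bulk samples fewer cells of a type cannot be told apart from less RNA per cell.

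Fox proteins bind DNA through the forkhead domain, a winged-helix fold, and Sox proteins through an HMG box related to that of Sry. Both families are read out by subfamily: FoxA and Sox17 act in endoderm, FoxC and FoxF in mesenchyme, FoxO downstream of insulin and growth factor signaling, FoxM1 at entry into mitosis, SoxB1 in neural progenitors, SoxC and SoxD in progenitors and cartilage, SoxE in cartilage, neural crest and glia, and SoxF in endothelium. Fibroblasts from different parts of an embryo are known to keep different sets of transcription factors in culture.

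The level of a probe is its processed signal divided by the 75th percentile of its array, so a level of 1 equals that percentile. Levels of different probes depend on the probes and are not amounts of RNA, and only ratios of the same probe between arrays were compared. A probe counted as dim where the scanner software did not mark it well above background, and a ratio against a dim array is a lower limit, written as "at least". Probes dim on both arrays, and limits that came out under 1, were given no ratio.

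The targeted genes were read first. Ccng1 had levels of 1.98 and 9.45 in the cultures labelled G2KO and WT of that comparison, and 1.66 in the WT of DKO. On the DKO array it was dim, with a ratio of at least 228-fold to its WT. Ccng2 had levels of 0.0910, 0.104, 0.0619 and 0.0806 on the arrays labelled G2KO, WT, DKO and WT of DKO, and thus was not markedly lower in the knockouts by this probe. Its signal was low, and whether the probe lies in the deleted part of the gene was not examined. The study reports genotyping of its knockout MEFs by RT-PCR, so these levels do not show that Ccng2 was intact. Over 24197 probes that all 4 arrays measured well above background, log2 ratios between the G2KO culture as labelled and the WT of DKO had an SD of 0.535, whereas those between the arrays labelled WT had an SD of 1.01. The arrays of the G2KO comparison are therefore called G2KO-labelled and WT-labelled, the other WT array is called DKO-WT, and directions in the G2KO comparison hold only if its labels do. The study lists Foxa2, Sox2, Sox6 and the X-linked RNA Xist as raised in G2KO MEFs, which is opposite to these arrays as labelled. It lists Pdgfra, Col11a1 and Slc1a3 as lowered there, whereas all of them were higher on the G2KO-labelled array. For DKO MEFs it lists Foxa2 as raised, which is the direction found here. Its methods describe dye-swapped arrays for G2KO where the sample labels describe a single color. The labels of that comparison may have been exchanged, and these arrays do not settle it. An exchange would turn the sign of every ratio in the G2KO comparison and leave its size as given.

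The 5 promoters shown here belong to genes with a probe that was bright on the WT-labelled array and dim on the G2KO-labelled array. Foxa1 and Foxa2 encode pioneer factors of endoderm and floor plate, Sox2 and Sox21 encode SoxB factors that promote and restrain the neural progenitor state, and Sox6 encodes a SoxD partner of Sox9 in cartilage that also acts in neural and blood cells. Each line gives 250 bases before to 50 bases after the annotated start, 5′ to 3′, from RefSeq on GRCm38.p6, and for Foxa2 (3 starts) and Sox6 (6 starts) it is the start farthest upstream. The arrays do not show which start was used. Capitals mark, on either strand, the forkhead core TGTTTA, the Sox core in its forms ACAAAG and ACAATG, and the box CCAAT.
Foxa1, chr12:57546062-57546361, minus strand: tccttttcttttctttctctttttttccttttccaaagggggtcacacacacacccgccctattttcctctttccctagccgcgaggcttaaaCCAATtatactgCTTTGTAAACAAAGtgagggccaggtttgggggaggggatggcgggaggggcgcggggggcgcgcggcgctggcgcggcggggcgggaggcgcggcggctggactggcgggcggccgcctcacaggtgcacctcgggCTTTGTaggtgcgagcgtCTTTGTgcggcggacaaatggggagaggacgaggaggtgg
Foxa2, chr2:148046920-148047219, minus strand: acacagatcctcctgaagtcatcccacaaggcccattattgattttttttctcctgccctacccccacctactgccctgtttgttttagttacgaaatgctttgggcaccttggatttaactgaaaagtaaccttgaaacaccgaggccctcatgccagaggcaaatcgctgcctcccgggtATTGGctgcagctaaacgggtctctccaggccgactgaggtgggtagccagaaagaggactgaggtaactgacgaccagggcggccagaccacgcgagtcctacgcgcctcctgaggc
Sox2, chr3:34649745-34650044, plus strand: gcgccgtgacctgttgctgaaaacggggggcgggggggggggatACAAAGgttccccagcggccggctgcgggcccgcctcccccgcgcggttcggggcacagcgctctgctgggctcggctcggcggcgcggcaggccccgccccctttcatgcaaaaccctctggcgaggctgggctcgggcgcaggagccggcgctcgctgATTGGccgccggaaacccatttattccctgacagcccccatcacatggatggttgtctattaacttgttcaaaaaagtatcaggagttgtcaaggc
Sox21, chr14:118236981-118237280, minus strand: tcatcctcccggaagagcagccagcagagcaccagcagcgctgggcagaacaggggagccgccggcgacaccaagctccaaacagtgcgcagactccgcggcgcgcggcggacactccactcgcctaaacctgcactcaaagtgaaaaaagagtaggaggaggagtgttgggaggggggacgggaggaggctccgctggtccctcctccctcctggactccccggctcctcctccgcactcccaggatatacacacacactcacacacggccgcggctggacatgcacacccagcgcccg
Sox6, chr7:116038695-116038994, minus strand: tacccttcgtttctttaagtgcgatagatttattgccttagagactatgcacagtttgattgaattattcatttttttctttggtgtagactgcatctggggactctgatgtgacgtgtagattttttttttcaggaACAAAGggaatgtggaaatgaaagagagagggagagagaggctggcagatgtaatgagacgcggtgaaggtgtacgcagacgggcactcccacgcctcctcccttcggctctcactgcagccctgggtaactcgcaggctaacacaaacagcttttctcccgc

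Counted on both strands, the Foxa1 window holds 1 forkhead core, 1 CCAAT box and 4 Sox cores, of which 2 overlap the forkhead core. The Sox2 window holds 1 Sox core and 1 CCAAT box, the Foxa2 window 1 CCAAT box, the Sox6 window 1 Sox core, and the Sox21 window none of these letters. Promoters were in the reference table for 41 of the 62 genes, with 51 windows in all. The forkhead core lay in 7 of these windows (13.7%) and in 13.4% of all 32851 promoters, ACAATG in 5 (9.8%) against 12.6%, ACAAAG in 15 (29.4%) against 18.7%, and CCAAT in 25 (49.0%) against 37.4%. The dinucleotide CG occurred 26 times in the Foxa1 window, 27 in that of Sox2, 22 in Sox21, 12 in Foxa2 and 11 in Sox6, and its median was 21 over member windows and 7 over all promoters. These matches describe the letters of the windows and are not binding sites.

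Of the 81 probes, 47 were well above background on all 4 arrays, 21 on 1 to 3 arrays and 13 on none. By array the number well above background was 55 on the G2KO-labelled array, 60 on the WT-labelled array, 58 in DKO and 50 in its WT. For 11 genes no probe was well above background on any array. They include every SoxF gene (Sox7, Sox17 and Sox18), both FoxB genes, Foxa3 of endoderm, Foxd3 of the neural crest, Foxn1 of the thymic epithelium, Foxn4, Foxr2 and the X-linked SoxB1 gene Sox3. Of the 9 endothelial markers, 4 or 5 were well above background on each array, with Kdr, Pecam1 and Cldn5 so on all 4 and Tie1 and Emcn on none. Of the 9 endoderm genes, Alb, Ttr, Onecut1 and Epcam were dim on all 4.

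**Figure D1:**
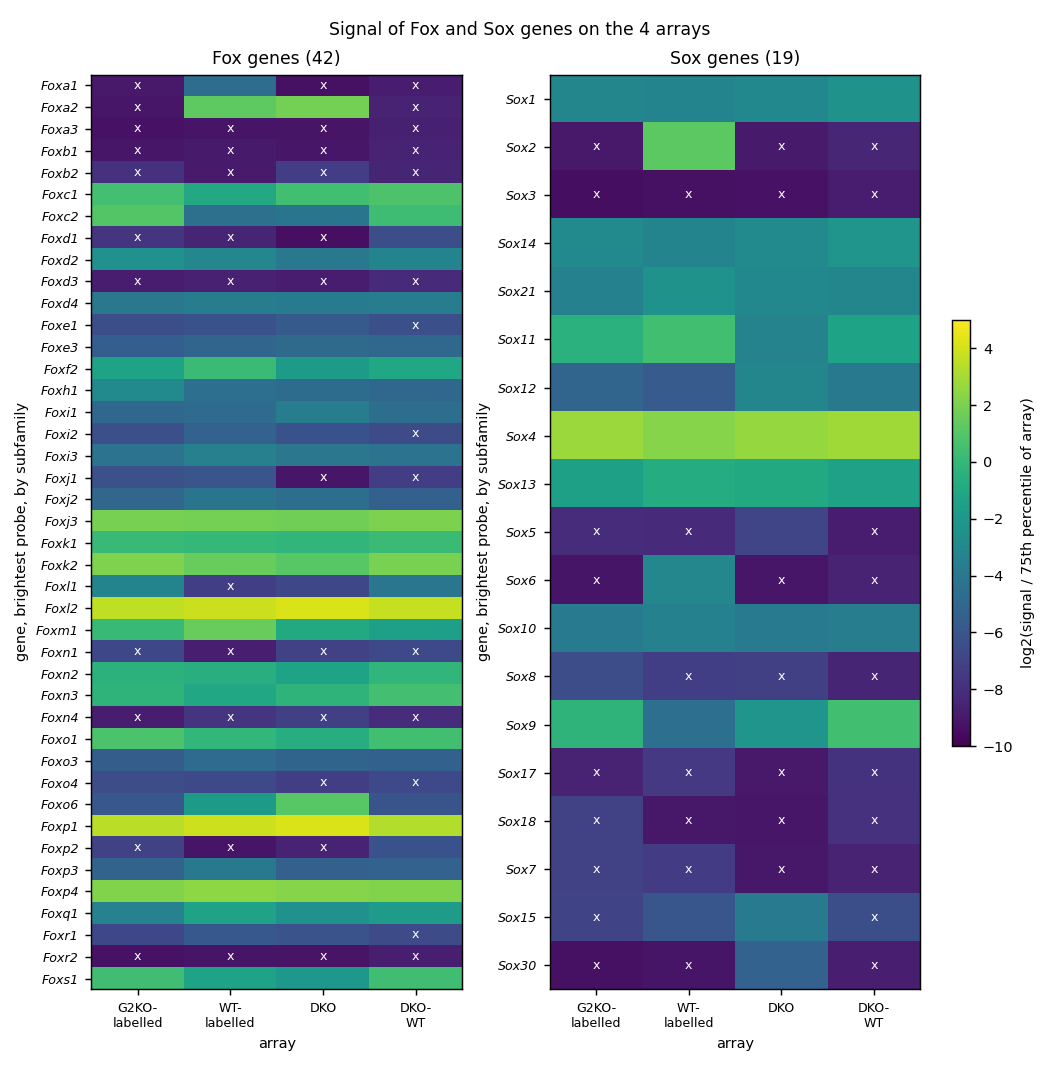
Log2 level (signal over the 75th percentile of the array, color) of the brightest probe of 42 Fox genes and 19 Sox genes (rows, by subfamily) on the 4 arrays (columns); a white x marks a probe that was not well above background on that array. Foxa2 and Sox2 change from bright to dim between arrays, whereas Foxl2, Foxp1, Foxj3 and Sox4 keep the same color across them.

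Of the 10 genes with the highest mean level by brightest probe, 7 stayed under 2-fold by that probe in each of the 5 pairs of arrays compared. Foxc1 and Foxo1 were among the others. Foxp1, a repressor with roles in lung, heart and lymphocytes, had levels of 11.1, 14.7, 18.1 and 9.55 in the order G2KO-labelled, WT-labelled, DKO and DKO-WT, which is used throughout. Its second-brightest probe had 4.04, 5.40, 6.32 and 3.34. A dimmer Foxp1 probe had 0.0628, 0.139, 0.0914 and 0.0486, with 2.22-fold in the G2KO comparison and 2.87-fold between the WT arrays. Foxl2, known from the ovary, eyelid and pituitary, had levels of 11.8, 13.6, 17.8 and 12.8. Its other probe, which overlaps the first, had only 0.0330, 0.0433, 0.0439 and 0.0378, so the rank of Foxl2 depends on 1 probe. By the brightest probe of both genes the DKO array was highest, by less than 2-fold over its WT.

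Sox4, a SoxC factor of many embryonic progenitors, had levels of 6.65, 4.80, 6.29 and 7.41, and its other 2 probes were also lowest on the WT-labelled array. Foxp4, a relative of Foxp1, had levels of 4.49, 5.36, 4.88 and 4.51. Foxj3, which is known from muscle and sperm cells, had 3.73, 3.60, 3.30 and 4.17. All 3 stayed under 2-fold in every pair.

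The FoxK factors, which regulate metabolism and autophagy, were also measured on all arrays. Foxk1 had levels of 1.07, 0.992, 0.911 and 1.18, and Foxk2 of 4.25, 2.90, 2.13 and 3.98. In all, by brightest probe 15 genes were well above background on all 4 arrays and differed less than 2-fold in each of the 5 pairs of arrays compared. They also include Foxo3, Sox1, Sox10 and Sox13. Some of the 15 had low signal, such as Foxo3, with levels of 0.0210 to 0.0375. The lowest levels well above background were between 0.0066 and 0.0102 on these arrays.

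Between the G2KO-labelled array and the WT-labelled array, 11 of 63 member probes (17.5%) differed at least 4-fold, against 5.5% of all 28279 probes compared. Of these, 3 were higher on the G2KO-labelled array (all probes, 3.58%) and 8 lower (1.92%), and 7 of the 11 ratios are lower limits. In DKO MEFs 11 of 58 member probes (19.0%) differed at least 4-fold from WT, with 5 higher and 6 lower, against 7.92% of all 28389 probes, 3.94% higher and 3.98% lower. Here 4 of the 11 ratios are lower limits.

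The WT arrays differed just as often, at 11 of 62 member probes (17.7%), against 7.21% of all 27475 probes. Relative to the WT-labelled array, 3 of these were higher on the DKO-WT array (all probes, 4.56%) and 8 lower (2.65%). The pair of the G2KO-labelled array and the DKO-WT array differed at 1 of 55 member probes (1.82%), against 2.18% of all probes. The pair of DKO and the WT-labelled array differed at 15 of 64 (23.4%), against 9.38%. These pairs share arrays with the comparisons above, so their counts are not separate evidence. As labelled, the WT preparations thus differed as often among the members as knockout and WT did. With the labels of the G2KO comparison exchanged, the WT arrays would be the pair that differed at 1 of 55 member probes. Genotype cannot be told apart from the culture.

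The median size of the log2 ratios was 0.81 over member probes and 0.44 over all probes in the G2KO comparison, 0.70 and 0.43 in DKO, and 0.74 and 0.47 between the WT arrays. Between the G2KO-labelled array and the DKO-WT array it was 0.27 for both. Over the 47 member probes well above background on all 4 arrays, where no limit enters, it was 0.65 in the G2KO comparison, 0.64 in DKO and 0.63 between the WT arrays, beside 0.40, 0.40 and 0.44 over all such probes.

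**Figure D2:**
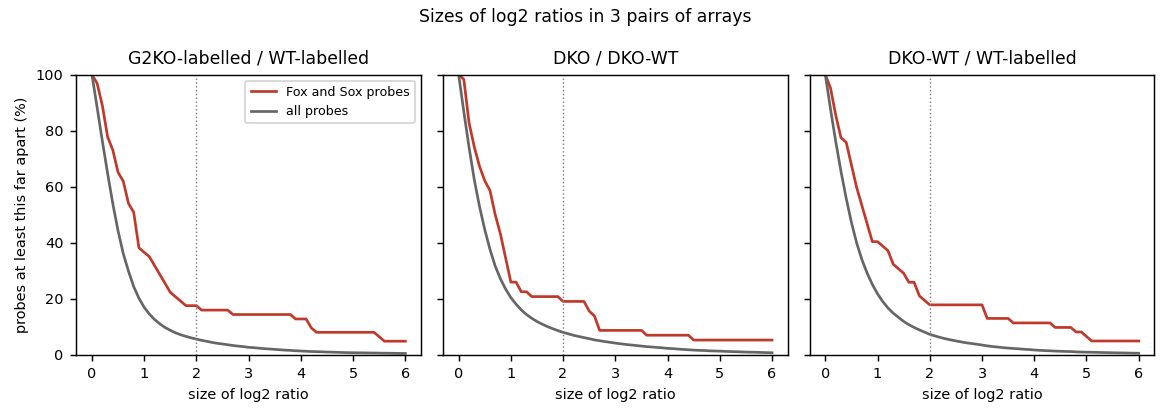
Percentage of probes (vertical axis) whose log2 ratio is at least the size on the horizontal axis, for Fox and Sox probes (red) and all probes compared (grey), in the G2KO comparison, DKO against its WT, and the DKO-WT array against the WT-labelled array; the dotted line is 4-fold. At 4-fold the red lines stand at 17.5%, 19.0% and 17.7% and the grey lines at 5.5%, 7.92% and 7.21%.

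By the brightest probe of each gene, 13 genes differed at least 4-fold in the G2KO comparison, in DKO or between the WT arrays. By pair these were 9 of 47, 8 of 44 and 8 of 47 genes compared. In the same order, 3.71%, 4.05% and 4.63% of all genes were higher, and 2.02%, 4.02% and 2.76% lower. The share of all genes over these pairs together was not counted. Of the 12 genes described here, all but Foxm1 and Foxq1 fell into patterns by array. The first is the pattern of Foxa2 and Foxo6, which were bright on the WT-labelled array and on the DKO array.

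Foxa2 had levels of 2.46 on the WT-labelled array and 3.58 on the DKO array, and was dim on the G2KO-labelled array and on the DKO-WT array. Its level was at least 373-fold lower on the G2KO-labelled array than on the WT-labelled array, and at least 350-fold higher in DKO than in its WT. The second Foxa2 probe, which overlaps the first by a few bases (chromosome 2 of mm9, 147868614 to 147868673 and 147868669 to 147868728), gave limits of 100-fold and 114-fold in the same directions. The WT arrays differed at least 240-fold in Foxa2. Of the 9 floor plate genes, where Foxa2 acts with Shh, Shh, Spon1, Corin and Lmx1a were dim on all 4 arrays, and of the 9 endoderm genes, between 1 and 4 were well above background on each array. Nkx2-2 and Nkx6-1, of the ventral neural tube, were highest on the WT-labelled array, with levels of 0.441 and 0.217 there and at most 0.155 and 0.0458 on the others. The remaining floor plate genes measured had other orders, with Slit2 levels of 1.75, 0.519, 1.32 and 5.27 on the G2KO-labelled, WT-labelled, DKO and DKO-WT arrays, while Ntn1 was highest on the G2KO-labelled array, with a log2 ratio of 0.45 there.

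Foxo6, the FoxO member best known from brain and a target of insulin signaling, had levels of 0.0166, 0.287, 2.17 and 0.0143. It was 17.3-fold lower on the G2KO-labelled array than on the WT-labelled array, and 151-fold higher in DKO than in its WT. The second Foxo6 probe was dim on the G2KO-labelled array and on the DKO-WT array, with levels of 0.0158 on the WT-labelled array and 0.0657 in DKO. It gave limits of 2.4-fold and 6.41-fold in the same directions.

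The other FoxO genes, which restrain proliferation and induce stress resistance, did not reach 4-fold. Foxo1 had levels of 1.69, 0.935, 0.630 and 1.39 and was lower in DKO with a log2 ratio of -1.14. Foxo3, the FoxO factor known to induce Ccng2, had levels of 0.0210, 0.0375, 0.0278 and 0.0251. Foxo4 was close to background on all arrays.

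Sox15, a SoxG factor of myoblasts and placenta, shared the pattern at low signal. Its levels were 0.0155 on the WT-labelled array and 0.0673 in DKO, where it was at least 5.65-fold higher than in its WT, and it was dim on the other 2 arrays. Sox30, a factor of male germ cells, was well above background in DKO only, at 0.0261 and at least 2.55-fold above WT. The limit for Sox30 did not reach 4-fold.

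Markers of mesothelium, the epithelial lining of the body cavities, moved with the DKO array. All 12 mesothelial genes were well above background there, against 6 on the G2KO-labelled array, 6 on the WT-labelled array and 4 on the DKO-WT array. Their summed level was 149 in DKO and between 0.712 and 1.74 on the other arrays. In DKO 11 of 12 were at least 4-fold higher than in WT, where 4.05% of all genes were higher and 4.02% lower. Wt1 and Upk1b were dim on every other array and had levels of 8.96 and 9.74 in DKO, Msln had a level of 100 in DKO against 0.492 in its WT, and Krt18 had a level of 24.7 where its WT was dim. The part of mesothelial cells in the levels of Foxa2, Foxo6, Sox15 and Sox30 was not tested. The WT-labelled array, which was bright for Foxa2 as well, had Wt1, Upk1b, Upk3b, Lrrn4, Krt18 and Bnc1 dim.

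The second pattern was well above background on the WT-labelled array alone and comprised Sox2, Sox6, Foxa1 and 1 of 2 Sox21 probes. Sox2, the SoxB1 factor of pluripotent and neural progenitor cells, had a level of 2.37 there and 0.00200, 0.00205 and 0.00294 on the G2KO-labelled, DKO and DKO-WT arrays, all dim. Relative to the WT-labelled array, the G2KO-labelled array was at least 359-fold lower and the DKO-WT array at least 231-fold lower. In DKO against its WT it was dim on both arrays and has no ratio. Sox2ot, a long noncoding transcript whose gene spans Sox2, was also well above background on that array alone, at a level of 0.0271.

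Sox6 had a level of 0.118 on the WT-labelled array and was dim on the others, at least 17.9-fold lower on the G2KO-labelled array. Foxa1 had 0.0407 there and was at least 6.16-fold lower on the G2KO-labelled array. The Sox21 probe at 118633351 to 118633410 on chromosome 14 had 0.349 there and was at least 48.3-fold lower. The other Sox21 probe (118633788 to 118633847) was measured on all 4 arrays, with levels of 0.0931, 0.206, 0.124 and 0.114. Both Sox21 probes were highest on the WT-labelled array, but their ratios of at least 48.3-fold and 2.21-fold disagree, and the brighter one by mean level is not among the 13 genes.

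Neural progenitor markers were mixed on that array. Nes, an intermediate filament of progenitors, had levels of 1.96, 28.0, 1.53 and 1.07. Pou3f3, a POU factor of neurons and kidney, had a level of 0.397 on the WT-labelled array and was dim on the others, at least 60.2-fold lower on the G2KO-labelled array. Pax6, Hes5, Olig2 and Pou3f2 were dim on the WT-labelled array, and so was Slc1a3 (2.65 on the DKO-WT array). The 12 markers summed to 29.2 there, of which Nes gave most, and to between 2.17 and 4.49 elsewhere. In the G2KO comparison 1 of 9 compared was at least 4-fold higher and 2 were lower, where 3.71% of all genes were higher and 2.02% lower.

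Other SoxB and neural crest members differed little. Sox1, of the lens and neural plate, had levels of 0.113, 0.105, 0.127 and 0.196, Sox14 of 0.143, 0.108, 0.143 and 0.223, and Sox10, of neural crest and glia, of 0.0667, 0.0932, 0.0741 and 0.0762. Of the 8 crest and glial markers found on the array, 6 had a ratio in the G2KO comparison, 7 in DKO and 7 between the WT arrays. None of these differed at least 4-fold. In the same order, 3.71%, 4.05% and 4.63% of all genes were higher, and 2.02%, 4.02% and 2.76% lower. With so few markers compared, a count of 0 is close to these shares. Of 7 pluripotency genes found, Zfp42 and Fgf4 were dim on all 4 arrays. In those pairs 5, 4 and 4 were compared, and none differed at least 4-fold, which is likewise close to the shares of all genes. Their part, and that of the neural markers, in the Sox2 level was not tested.

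Xist, the noncoding RNA of the inactive X chromosome, was well above background on the WT-labelled array alone, with a level of 1.13. It thus moved with Sox2, Sox6, Foxa1 and the Sox21 probe. Between the arrays of the G2KO comparison its ratio was a limit of 172-fold, with the WT-labelled array higher. The study instead reports Xist as raised in its G2KO MEFs and ascribes this to their coming from female embryos. What part a difference between embryos, including one of sex, has in these levels was not tested.

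The third pattern was the reverse of the first: Foxc2, Foxl1, Foxs1 and Sox9 were high on the G2KO-labelled array and on the DKO-WT array, and low on the WT-labelled array and in DKO. Foxc2, a factor of paraxial and lymphatic mesenchyme, had levels of 1.96, 0.0461, 0.0557 and 1.26. It was 42.4-fold higher on the G2KO-labelled array than on the WT-labelled array, and 22.6-fold lower in DKO than in its WT. The WT arrays differed 27.3-fold. Both low arrays lay within 1.21-fold of each other, and both high arrays within 1.55-fold.

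Foxl1, a factor of the mesenchyme beneath gut epithelium, had levels of 0.105 and 0.0590 on the high arrays, 0.00923 in DKO, and was dim on the WT-labelled array. The G2KO-labelled array was at least 14.6-fold higher than the WT-labelled array, and DKO was 6.39-fold lower than DKO-WT. Foxs1, of pericytes and sensory neurons, had levels of 1.34, 0.405, 0.247 and 1.34, 5.43-fold lower in DKO, and 3.32-fold apart in the G2KO comparison.

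Sox9, the SoxE factor that drives cartilage, had levels of 0.831, 0.0439, 0.224 and 1.39. The SD between its 10 spots was 0.05, 0.08, 0.26 and 0.10 on the log2 scale in the same order, which is the error between spots of an array and not between cultures. It was 18.9-fold higher on the G2KO-labelled array and 6.22-fold lower in DKO, and the WT arrays differed 31.8-fold. In DKO it lay 5.11-fold above the WT-labelled array.

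Among 13 cartilage matrix genes, of which Sox9 is a known activator, Col11a1 and Col10a1 were at least 4-fold higher on the G2KO-labelled array and Matn3 was lower, of 11 compared (all genes, 3.71% higher and 2.02% lower). Col11a1 had levels of 8.19, 0.239, 4.11 and 8.68, and Col10a1 of 0.513, a dim value, 0.0632 and 3.86. Col2a1, the main cartilage collagen and the best known Sox9 target, had levels of 0.874, 2.44, 0.0466 and 6.54, so its order over the arrays differed from that of Sox9. Aggrecan (Acan) stayed between 0.0395 and 0.0493. In DKO 2 of 10 matrix genes compared were at least 4-fold lower and 0 higher (all genes, 4.02% and 4.05%).

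Fibroblast markers were mixed, and some were high on the arrays of the third pattern. All 14 were well above background on 3 arrays and 12 on the WT-labelled array, where Pdgfra and Lum were dim. Their summed level was 524, 405, 413 and 610. On the G2KO-labelled array 5 of 14 were at least 4-fold higher and 0 lower than on the WT-labelled array (all genes, 3.71% higher and 2.02% lower). In DKO 1 was higher and 5 lower than in WT (all genes, 4.05% and 4.02%). On the DKO-WT array 7 were higher and 0 lower than on the WT-labelled array (all genes, 4.63% and 2.76%). Thy1 had levels of 53.1, 0.461, 3.42 and 61.5, and Postn of 10.9, 0.566, 0.116 and 21.6. Col1a1, Col1a2, Fn1, Vim and Twist1 stayed under 2-fold in the G2KO comparison, in DKO and between the WT arrays. Dcn was the marker at least 4-fold higher in DKO, with levels of 0.757, 0.0722, 49.0 and 2.95. Whether the makeup of the cultures accounts for the Foxc2, Foxl1, Foxs1 and Sox9 levels was not tested.

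**Figure D3:**
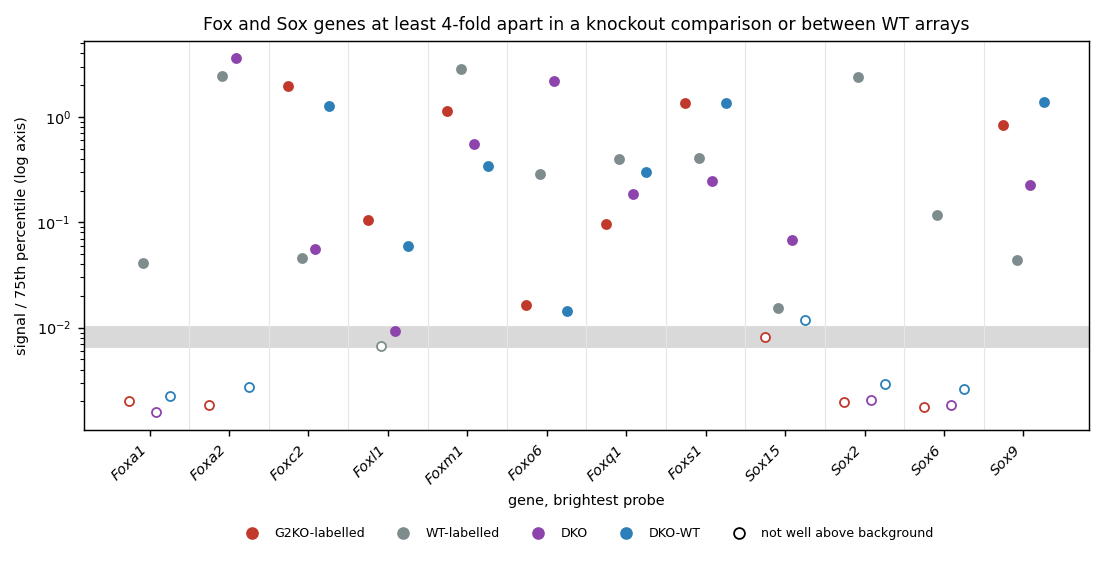
Level (signal over the 75th percentile, log axis) of 12 Fox and Sox genes whose brightest probe differed at least 4-fold in the G2KO comparison, in DKO or between the WT arrays, with 1 point per array; open points were not well above background, and the grey band spans the lowest level well above background on the 4 arrays. Foxc2, Foxl1, Foxs1 and Sox9 are high on the G2KO-labelled array and the DKO-WT array, Foxa2 and Foxo6 on the other 2 arrays, and Sox2 and Sox6 on the WT-labelled array alone.

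Seen by comparison, Foxa2, Foxo6, Foxc2, Foxl1 and Sox9 moved at least 4-fold in opposite directions in the G2KO comparison and in DKO. Foxa2 and Foxo6 had log2 ratios of -8.54 and -4.11 in the G2KO comparison and of 8.45 and 7.24 in DKO. Foxc2, Foxl1 and Sox9 had log2 ratios of 5.41, 3.87 and 4.24 in the G2KO comparison and of -4.50, -2.68 and -2.64 in DKO. As labelled, by brightest probe no Fox or Sox gene differed at least 4-fold in the same direction in both comparisons. The share of all genes that moved in the same or in opposite directions was not counted. Whether the opposite directions are particular to these families thus cannot be told. With the labels of the G2KO comparison exchanged, the log2 ratios there would be 8.54 for Foxa2, 4.11 for Foxo6, -5.41 for Foxc2, -3.87 for Foxl1 and -4.24 for Sox9, and all 5 would differ in the same direction as in DKO.

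**Figure D4:**
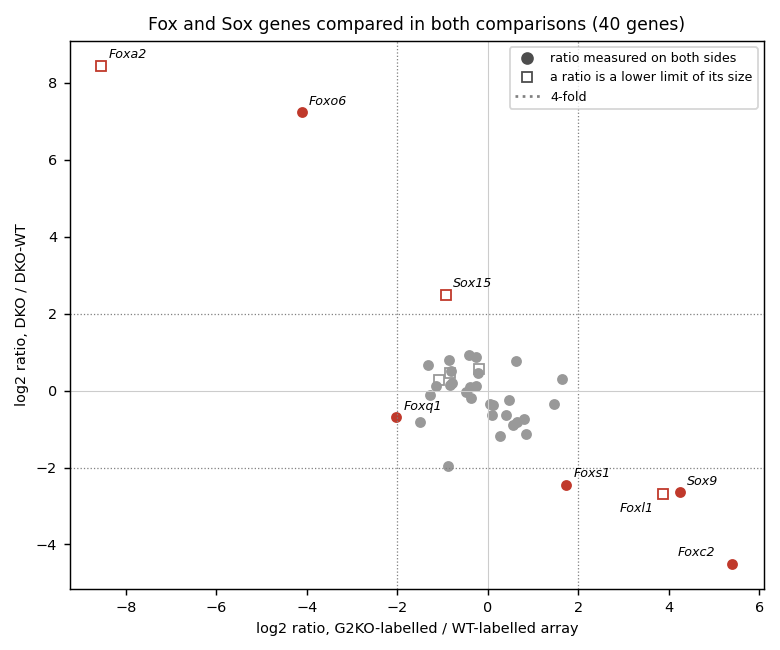
Log2 ratio in DKO against its WT (vertical axis) and of the G2KO-labelled array against the WT-labelled array (horizontal axis) for 40 Fox and Sox genes compared in both; squares have a limit in at least 1 comparison and dotted lines mark 4-fold. Foxa2 and Foxo6 lie at upper left, Foxc2, Foxl1 and Sox9 at lower right, and as labelled no gene shown lies past 4-fold in both comparisons with the same sign. Exchanged labels of the G2KO comparison would mirror the plot about the vertical zero line, which puts these 5 genes at upper right and lower left.

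In DKO Sox11 was lower than on all other arrays. Sox11, a SoxC factor of neurons and embryonic mesenchyme, had levels of 0.745, 1.37, 0.104 and 0.406 by its brighter probe and 0.311, 0.535, 0.0377 and 0.225 by the other. The log2 ratios in DKO were -1.96 and -2.58, on either side of 4-fold. Against the WT-labelled array, DKO was 13.1-fold and 14.2-fold lower. Sox12, the third SoxC gene, went the other way at low signal, with levels of 0.0296, 0.0191, 0.115 and 0.0667 and a log2 ratio of 0.78 in DKO.

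Foxm1, which drives the genes of G2 phase and mitosis, had levels of 1.14, 2.86, 0.547 and 0.342, and its second probe 0.110, 0.301, 0.0551 and 0.0357. It was 2.51-fold lower on the G2KO-labelled array and 1.6-fold higher in DKO, while the WT arrays differed 8.36-fold. Both arrays of the G2KO comparison lay above both arrays of the DKO comparison.

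Known mitotic target genes of FoxM1 were counted beside it. None of 15 compared in the G2KO comparison (all genes, 3.71% higher and 2.02% lower) and none of 14 in DKO (4.05% and 4.02%) differed at least 4-fold. Median log2 ratios of these targets were -0.65 and 0.16, beside -0.17 and 0.03 over all genes. Between the WT arrays 13 of 15 were at least 4-fold lower on the DKO-WT array and 0 higher (all genes, 2.76% lower and 4.63% higher). The median there was -3.07, beside -0.08 over all genes. Kif20a, a mitotic kinesin, had levels of 4.20, 9.77, 1.35 and 0.768, and Aurkb, the kinase of the chromosomal passenger complex, had 0.0421, 0.0957, 0.0237 and 0.0119. Cdc25b and Skp2 differed less than 2-fold between the WT arrays. The G2KO-labelled array also lay above the DKO-WT array, which would be the WT pair with labels exchanged. The ratio there was 3.33-fold for Foxm1, 5.48-fold for Kif20a and 3.54-fold for Aurkb, but 1.54-fold for Cdc25b and 1.34-fold for Skp2. All cultures were described as being in logarithmic growth.

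Of 16 FoxO target genes, 2 of 15 compared were at least 4-fold higher on the G2KO-labelled array and 2 of 15 at least 4-fold lower in DKO (all genes, 3.71% and 4.02%), and both times these were Fbxo32 and Pdk4. Fbxo32, a ubiquitin ligase of muscle wasting, had levels of 1.09, 0.120, 0.122 and 1.31. Pdk4, which restrains pyruvate oxidation, had 0.892, 0.116, 0.487 and 2.16. Their high arrays were those of Foxc2 and Sox9. The median log2 ratios of the list were -0.17 and -0.45, with Irs2 and Cited2 among its members closest to 4-fold.

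Of the Fox genes that lie side by side on a chromosome, some had the same pattern and others did not. On chromosome 8 of mm9 the probe of Foxc2 (123642693 to 123642752) lies 11.7 kb from that of Foxl1 (123654402 to 123654461), and the probe of Foxf1, listed on the array as Foxf1a and hence no member by name, lies 32.0 kb away on the other side. Foxc2 and Foxl1 were high on the same 2 arrays. Foxf1a, a factor of lateral plate and gut mesenchyme, was well above background only on the other 2, with levels of 0.0924 on the WT-labelled array and 0.149 in DKO. Its ratio was at least 14.0-fold down on the G2KO-labelled array and at least 14.6-fold up in DKO, opposite to its neighbours.

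On chromosome 13 the probes of Foxq1, Foxf2 and Foxc1 lie 70.9 kb and 179 kb apart in that order. Foxq1, a factor of epithelia, had levels of 0.0973, 0.394, 0.185 and 0.297, 4.05-fold lower on the G2KO-labelled array. Foxf2, of gut and lung mesenchyme, had 0.410, 1.17, 0.282 and 0.493, below 4-fold in the G2KO comparison, in DKO and between the WT arrays. Foxc1, the close relative of Foxc2, had 1.43, 0.517, 1.38 and 1.76 and was lowest on the WT-labelled array, whereas Foxq1 and Foxf2 were highest there.

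**Figure D5:**
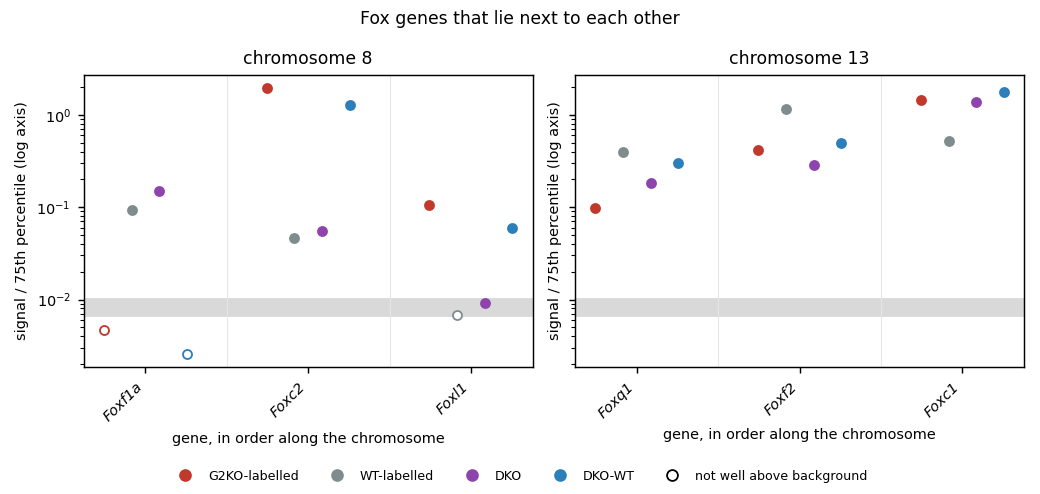
Level (signal over the 75th percentile, log axis) of neighbouring Fox genes on chromosome 8 (left) and chromosome 13 (right), with 1 point per array; open points were not well above background and the grey band spans the lowest level well above background on the 4 arrays. On chromosome 8 Foxf1a is bright on the arrays on which Foxc2 and Foxl1 are low.

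Outside the 13 genes, 34 genes were compared in the G2KO comparison, in DKO and between the WT arrays, where by selection their brightest probes stayed within 4-fold. Their log2 ratios ranged from -1.51 (Foxf2) to 1.65 (Foxh1) in the G2KO comparison, from -1.96 (Sox11) to 1.35 (Sox30, a limit) in DKO, and from -1.75 (Sox11) to 1.80 (Sox12) between the WT arrays. Under 2-fold were 28, 30 and 25 of the 34. Foxh1, a partner of Smad proteins in nodal signaling, was highest on the G2KO-labelled array, with levels of 0.135, 0.0430, 0.0390 and 0.0316, 4.26-fold above the DKO-WT array. Between DKO and the WT-labelled array, Sox11 and Foxf2 (4.13-fold lower in DKO) and Sox12 (5.99-fold higher) passed 4-fold as well. Among the 16 genes with more than 1 probe, probes of Foxo6, Sox11 and Sox21 fell on different sides of 4-fold, and those of Sox1 (log2 ratios of -0.63 and 0.77), Foxn3 (-0.74 and 0.19) and Foxp4 (from -0.47 to 0.11) differed in sign in DKO.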

How the data were processed

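Total RNA of 4 MEF cultures was hybridised to single-color Agilent mouse arrays. The authors deposited the signal intensity of each spot from Agilent Feature Extraction, corrected for background and spatial trends (version 10.7.3.1 in the file headers and 10.5.1.1 in the submitters' processing notes), and a table of values. That table holds the same deposited intensity, with a largest log2 difference of 0. Gene names and probe positions (mm9) are those of the files.

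Control spots and 107 to 140 outlier spots per array were left out. Intensities were divided by the 75th percentile of each array (2234, 1586, 1777 and 1877 for the arrays labelled G2KO, WT, DKO and WT of DKO) and spots of a probe were averaged on the log2 scale. For 399 probes with several spots, the median SD between spots was 0.0752 to 0.122, and no spot was saturated. Between 64.98% and 72.21% of probes were well above background. Against a dim array the ratio used the higher of the probe's own signal and the lowest averaged signal well above background there (14.7, 11.4, 13.0 and 19.2), and is a lower limit. A difference was counted from 4-fold. Each group has 1 array, and so few arrays limit the precision. No test was run; a fit with both WT arrays as replicates would have 1 residual degree of freedom. The calculation of ratios was tried on simulated arrays with known changes, which checks the arithmetic and not differences between cultures.

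Genes with several probes were represented by the one with the highest mean log2 level. Named were members at least 4-fold apart in either knockout comparison or between WT arrays, the 10 with the highest mean level, Foxa2, Sox2, Sox6, Foxo3, Foxm1, chromosomal neighbours, genes whose probes disagree, Ccng1, Ccng2 and up to 4 genes of each list with the largest ratios. Xist, Sox2ot and other listed markers were added for their values, and other members named after their values were seen. Values of some genes are not reported here, although counts include them. The members and lists were chosen with earlier results of these data known. The alternatives were normexp background correction (limma 3.58.1, R 4.3.3, offset 50), other scalings, filters, thresholds, WT arrays and probe rules. Python 3.11.15, numpy 2.4.6 and pandas 2.3.3 were used.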

Additional observations from a re-analysis of the deposited data

Results flagged for a closer look

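In all, 5 genes moved at least 4-fold one way in the G2KO comparison and at least 4-fold the other way in DKO, with 1 array per group, so the difference between the comparisons was not tested. The log2 ratios in the G2KO comparison and in DKO were -8.54 and 8.45 for Foxa2 (both limits) and -4.11 and 7.24 for Foxo6. They were 5.41 and -4.50 for Foxc2, 3.87 (a limit) and -2.68 for Foxl1, and 4.24 and -2.64 for Sox9. After normexp correction Foxl1 had 1.65 and -0.89, under 4-fold in both comparisons. Its level of 0.00923 in DKO lay close to the lowest level well above background on that array (0.00730). The comparisons share no array. Genes that moved in opposite directions were not counted over the whole array, so no share of all genes stands beside these 5. The directions rest on the labels of the G2KO comparison, which are in doubt. With these exchanged, its ratios would be 8.54, 4.11, -5.41, -3.87 and -4.24 for Foxa2, Foxo6, Foxc2, Foxl1 and Sox9, and 0 genes would move at least 4-fold opposite ways.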

How the results depend on the processing

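The counts of member probes at least 4-fold apart, 11 in the G2KO comparison, 11 in DKO, 11 between the WT arrays, 1 between the G2KO-labelled array and the DKO-WT array, and 15 between DKO and the WT-labelled array, stayed within 1.5 times under quantile normalization, median scaling, no scaling, the deposited table and counts of genes. With probes well above background on both arrays they were 4, 7 and 5 in the first 3 pairs. After normexp correction they were 7 in DKO, 0 in the fourth pair and 7 in the fifth, and without a filter or limit 2 in the fourth. A 2-fold threshold gave 23 in the G2KO comparison, 25 between the WT arrays and 5 in the fourth pair, and a 10-fold threshold 5 in DKO, 0 in the fourth and 6 in the fifth. Set against the other comparison's WT, the G2KO-labelled array differed at 1 member probe, with a median size of log2 ratios of 0.27 in place of 0.81, and against the mean of both WT arrays at 7, with 0.39.

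Against the WT of the other comparison, 5 ratios of at least 4-fold turned their sign: Foxo6 (0.21) and Sox9 (-0.75) for the G2KO-labelled array, and Foxc2 (0.27), Foxl1 (0.37) and Sox9 (2.35) for DKO. Of the smaller ratios, Foxm1 turned to 1.74 for the G2KO-labelled array and -2.39 for DKO, and against the mean of both WT arrays to 0.20 and -0.85, and Foxs1 fell to about 0 for the G2KO-labelled array. Against the other WT, Foxa2 fell from 8.45 to 0.54 for DKO. Foxa1, Foxa2, Sox2, Sox6 and Sox15 were dim on both the G2KO-labelled array and the DKO-WT array. They thus have no ratio in that pair and are not counted for it below, and their differences in the G2KO comparison depend on the WT-labelled array. With the labels of the G2KO comparison exchanged, a setting chosen after seeing the data, 5 genes in place of 0 were at least 4-fold apart in the same direction in both comparisons, and 0 in place of 5 in opposite directions. Of 263 log2 ratios of the 12 genes under the alternatives, 197 stayed within 1.5-fold and 61 moved further without turning the sign of a difference of 4-fold, 21 of them with normexp correction, which shrank the ratios of dim probes. Without scaling the median of all probes shifted by 0.50 in the G2KO comparison. The cause was not tested. No paired analysis was possible because each group has 1 array. Depth is not measured by arrays. In the G2KO comparison, in DKO and between the WT arrays, every ratio of Foxa1, Foxa2, Sox2, Sox6, Sox15 and Sox30 is a limit. Of these, Foxa1, Sox6, Sox15 and Sox30 had low signal on every array. Foxl1 has limits in the G2KO comparison and between the WT arrays.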
